A study of Mus musculus with 40 samples.

Results

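The 10 genes described here encode subunits of protein kinase A (PKA) and the phosphodiesterases that remove its activator, cyclic AMP (cAMP). They were chosen by name: the catalytic subunits Prkaca and Prkacb, the regulatory subunits Prkar1a, Prkar2a and Prkar2b, and the phosphodiesterases Pde3a, Pde3b, Pde4a, Pde4b and Pde4d, 10 of 21938 protein-coding genes on chromosomes 1 to 19, X and Y. Every peak over a gene body or within 10 kb upstream of it was taken from 32 peak lists of 4 histone marks. Peaks of a mark that overlapped between mice by at least 1 bp were joined into a region, which gave 45 H3K4me3, 101 H3K27ac, 86 H3K4me1 and 1 H3K27me3 regions over the 10 genes, of 28739, 47548, 46451 and 7108 regions in all.

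The lists came from chromatin immunoprecipitation and sequencing (ChIP-Seq) of interscapular brown adipose tissue (iBAT) of wild type C57BL/6N mice aged 20 weeks. The study had 4 conditions, with 2 mice in each: warm on normal chow diet (NCD; mice 1 and 2), cold on NCD (mice 4 and 5), warm on high-fat diet (HFD; mice 7 and 8) and cold on HFD (mice 10 and 11). Cold mice were housed at 4 °C for 24 h, and HFD was given for 12 weeks from the age of 8 weeks. All mice were wild type, and the tissue was profiled whole, so that fewer cells of a type and less mark per cell cannot be told apart.

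In brown adipocytes, noradrenaline acts on β-adrenergic receptors that raise cAMP, which releases the catalytic subunits of PKA from the regulatory subunits and starts lipolysis and thermogenesis. Phosphodiesterases hydrolyse cAMP and end the signal. PDE3B is the form through which insulin restrains lipolysis in adipocytes, and the PDE4 genes make long and short isoforms from several promoters within 1 gene. H3K4me3 marks active or poised promoters, H3K27ac active promoters and enhancers, H3K4me1 enhancers, and H3K27me3 genes silenced by Polycomb.

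The lists differed in size between mice. H3K4me3 lists held 13517 to 24104 peaks and H3K27ac lists 3224 (mouse 7) to 40604 (mouse 11). H3K4me1 lists of mice 1, 7 and 10 held 592, 12 and 18 peaks, against 7774 to 27568 in the others, and H3K27me3 lists held 20 to 6428. With lists this short, a mark without a peak cannot be taken as absent. Starts of 7 brown adipocyte markers, Ucp1 and Cidea among them, had H3K4me3 in 8 of 8 mice in every case. The number with H3K4me3 in 8 mice was 3 of 4 endothelial, 0 of 5 macrophage, 0 of 6 skeletal muscle and 0 of 4 preadipocyte and fibroblast markers, of which 4, 3, 4 and 4 had it in at least 1 mouse. Their part in the results below was not tested.

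Annotated transcript starts lying within 1000 bp of each other were joined, which gave 30 starts for the 10 genes. A start was counted as marked where a peak overlapped the 1000 bp on either side. H3K4me3 was present in all 8 mice at 12 of the 30 starts, where 35.9% of all 27573 protein-coding starts had it, and in no mouse at 12, where 43.7% of all starts lacked it. H3K27ac was present in all 8 mice at 4 starts (3.13% of all starts) and in no mouse at 14 (57.2%). The 4 starts were those of Prkar2b and Pde3b, Pde4b-203 and Pde4d-207. By gene, 9 of 10 had at least 1 start with H3K4me3 in 8 mice, where 43.3% of all genes had. The gene value takes the best start of a gene, so more starts give more chances. The 10 genes have 30 starts, against 27573 starts over all 21938 genes. H3K4me1 was found at 12 starts (19% of all) and H3K27me3 at 1 (5.9%), in at least 1 mouse. The exception for H3K4me3, Prkar2a, lacked it in mouse 7 alone. Without mice 7 and 10, whose lists were short, H3K4me3 was present in all 6 mice left at 15 of 30 starts, where 48.4% of all starts had it, and H3K27ac at 8, where 22% had it.

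**Figure D1:**
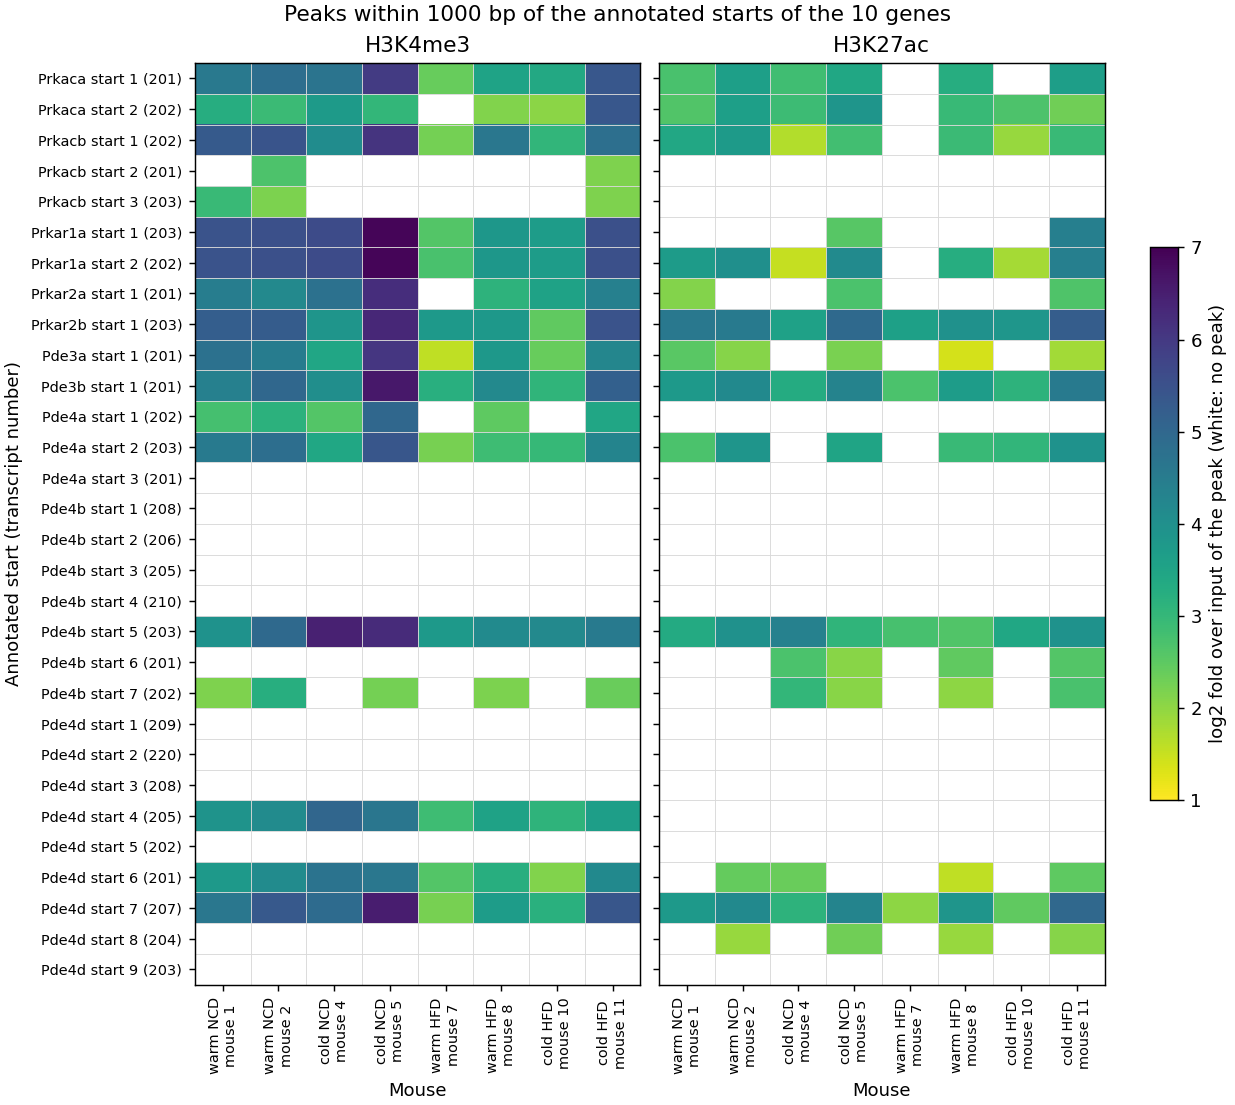
Each row is an annotated start of the 10 genes and each column a mouse, ordered by condition, with the colour giving the log2 fold over input of the highest peak within 1000 bp and white meaning no peak. H3K4me3 is present in 8 mice at 12 of 30 starts and has no peak in any mouse at 12, and H3K27ac is present in 8 mice at 4 starts.

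Sequences before the starts are shown because starts with H3K4me3 in 8 mice and starts with none differed in median CpG count. Each is the 200 bases before the start on GRCm38, 5′ to 3′ on the strand of the gene, with CpG dinucleotides in capitals. CpG was chosen for display after the counts had been seen. Prkar2b (chr12:32061297-32061496, minus strand) and Pde4d-207 (chr13:109902906-109903105, plus strand) carried both marks in 8 mice and held 25 and 26 CpGs. Pde4b-203 (chr4:102569895-102570094, plus strand) carried both marks in 8 mice with 2 CpGs, and Pde4d-201 (chr13:109685956-109686155, plus strand) carried H3K4me3 in 8 mice with 8. Pde4b-206 (chr4:102254542-102254741, plus strand) had no peak of any mark, with 7.

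Prkar2b: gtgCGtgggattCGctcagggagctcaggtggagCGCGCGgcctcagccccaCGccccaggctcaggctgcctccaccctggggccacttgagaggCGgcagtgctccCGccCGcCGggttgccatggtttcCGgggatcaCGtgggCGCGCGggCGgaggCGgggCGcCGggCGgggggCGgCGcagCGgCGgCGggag

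Pde4d-207: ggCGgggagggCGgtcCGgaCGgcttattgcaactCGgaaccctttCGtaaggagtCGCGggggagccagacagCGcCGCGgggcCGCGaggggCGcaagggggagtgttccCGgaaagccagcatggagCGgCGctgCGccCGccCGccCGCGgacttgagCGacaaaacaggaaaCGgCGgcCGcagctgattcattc

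Pde4b-203: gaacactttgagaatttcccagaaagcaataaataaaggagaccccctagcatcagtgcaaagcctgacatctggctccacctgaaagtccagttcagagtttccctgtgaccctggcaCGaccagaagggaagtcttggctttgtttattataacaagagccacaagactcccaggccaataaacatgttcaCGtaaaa

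Pde4d-201: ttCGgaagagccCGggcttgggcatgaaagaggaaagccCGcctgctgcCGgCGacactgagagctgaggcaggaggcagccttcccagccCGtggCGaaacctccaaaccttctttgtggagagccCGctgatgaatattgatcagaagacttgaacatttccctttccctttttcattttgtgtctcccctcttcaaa

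Pde4b-206: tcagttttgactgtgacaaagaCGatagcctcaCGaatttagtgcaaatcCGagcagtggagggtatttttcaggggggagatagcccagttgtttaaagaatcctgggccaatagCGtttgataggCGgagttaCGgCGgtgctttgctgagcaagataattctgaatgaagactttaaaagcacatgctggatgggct

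The median number of CpGs was 11.5 (range 2 to 36) before the 12 starts with H3K4me3 in 8 mice and 4 (range 0 to 17) before the 12 with none, against 6 over 27568 protein-coding starts. The ranges overlapped. The full cAMP response element, TGACGTCA, was found on either strand before 0 of the 30 starts, where 1.68% of all starts hold it. Its core TGACG, which lies within the full element, was found before 6 of 30 starts, where 16% of all hold it. TATAAA stood before 1 start (10.3% of all), CCAAT before 7 (30.4%) and GGGCGG before 10 (34.5%). These matches describe letters in the window only.

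Of the catalytic subunits, Prkaca (chr8:83972993-83996443), which encodes Cα, had H3K4me3 at start 1 in all mice. The fold over input, a ratio calculated by the peak caller within each library, was 23.8 and 28.3 in warm NCD, 25.9 and 62.2 in cold NCD, 5.29 and 11.4 in warm HFD and 10.4 and 41.6 in cold HFD mice. The lowest value was that of mouse 7 and the highest that of mouse 5, and the cold and warm groups overlapped. H3K27ac was present there in 6 mice. At start 2, which lies 3890 bp downstream, H3K4me3 and H3K27ac were each present in the same 7 mice, all but mouse 7. An H3K27ac region upstream of the gene (chr8:83963061-83966010) was present in 8 mice at 5.65 to 14.7 fold. It lay over or within 1000 bp of a start of Asf1b found in the comprehensive annotation. An H3K4me3 region over the 3′ end of Prkaca (chr8:83996218-83996969) lay over or within 1000 bp of a start of Samd1. It was present in 6 mice and overlapped H3K27ac in 6.

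Prkacb (chr3:146729574-146812960, minus strand), which encodes Cβ, had H3K4me3 in 8 mice at start 1. The fold there was 39.3 and 43.7 in warm NCD, 16.8 and 68.7 in cold NCD, 4.74 and 24.6 in warm HFD and 8.23 and 27.8 in cold HFD mice. The groups overlapped by temperature and by diet. H3K27ac was present in 7 mice, all but mouse 7. Starts 2 and 3, which lie 31544 and 42179 bp downstream, had H3K4me3 in 2 and 3 mice and H3K27ac in 0.

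Among the regulatory subunits, Prkar1a (chr11:109649405-109669656), which encodes RIα, had the highest median H3K4me3 fold of the genes at 45.2. The values were 44.3 and 46.1 in warm NCD, 49.4 and 120.1 in cold NCD, 6.62 and 14.2 in warm HFD and 12.9 and 46.5 in cold HFD mice, with mouse 5 alone above the rest in raw fold. Within its own list the mouse 5 peak stood at the 93.8th percentile of fold, as did the mouse 2 peak in its list. The 2 starts of Prkar1a lie 1170 bp apart and shared this H3K4me3 region, and H3K27ac was present in 2 mice at start 1 and in 7 at start 2. Prkar2a (chr9:108692143-108750436), which encodes RIIα, had H3K4me3 in 7 mice at a median fold of 21.02 (8.66 to 74.6), with H3K27ac in mice 1, 5 and 11 only. Prkar2b (chr12:31958476-32061296, minus strand), which encodes RIIβ, the regulatory subunit abundant in adipose tissue, had both marks in 8 mice.

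The Prkar2b start carried H3K27ac at a fold of 24.4 and 22.9 in warm NCD, 11.9 and 30.7 in cold NCD, 12.0 and 15.7 in warm HFD and 14.4 and 37.8 in cold HFD mice. These peaks were high within every list: the lowest stood at the 92.7th percentile of fold in its own list and the median at the 98.7th. An intronic H3K27ac region (chr12:32042053-32048455), whose middle lies 16042 bp from the start, was also present in 8 mice at 7.10 to 18.6 fold. The 200 bases (chr12:32045588-32045787, minus strand, CpGs in capitals) around the median summit, shown because no other PKA gene had an intronic H3K27ac region in 8 mice, overlapped no exon.

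Prkar2b intron: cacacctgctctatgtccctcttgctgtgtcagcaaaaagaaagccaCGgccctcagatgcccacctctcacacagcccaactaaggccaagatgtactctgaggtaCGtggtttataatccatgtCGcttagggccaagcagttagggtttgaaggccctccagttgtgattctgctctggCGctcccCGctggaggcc

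Each PDE3 gene had 1 annotated start with H3K4me3 in 8 mice. Pde3b (chr7:114415281-114539251) carried H3K27ac there in 8 mice, at 6.48 to 23.3 fold, and the same region lay over or within 1000 bp of a start of 4933406I18Rik. Its H3K4me3 fold was 20.96 and 31.7 in warm NCD, 16.4 and 97.3 in cold NCD, 9.32 and 18.0 in warm HFD and 8.44 and 35.7 in cold HFD mice. Pde3a (chr6:141249269-141507448), the form best known from heart and platelets, had a median H3K4me3 fold of 16.5 (2.96 to 66.5), with H3K27ac in 5 mice at a median of 4.24. Its H3K4me3 region also lay over or within 1000 bp of a start of Gm28523. Pde3b had 7 H3K27ac regions away from starts, meaning over 1000 bp from any start in the comprehensive annotation, and Pde3a had 0.

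Pde4a (chr9:21165714-21213248) had H3K4me3 at start 2 (Pde4a-203) in 8 mice and at start 1 in 6, and no peak at start 3. The fold at start 2 was 23.3 and 28.3 in warm NCD, 10.8 and 41.7 in cold NCD, 4.69 and 7.31 in warm HFD and 7.85 and 19.7 in cold HFD mice, and the groups overlapped. H3K27ac was present at start 2 in 6 mice and at start 1 in 0. H3K4me3 without H3K27ac was also found in 7 mice at a start of Pde4a-204, a retained intron transcript of the comprehensive annotation, and in 7 mice upstream of start 1 (chr9:21160991-21161889), where the fold was 4.69 to 51.4. A further H3K4me3 region whose middle lies 2416 bp downstream of start 1 was present in 6 mice and overlapped H3K27ac in 5.

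Pde4b (chr4:102087543-102607259) has 7 annotated starts, of which starts 1 to 4 had no H3K4me3, H3K27ac or H3K4me1 peak in any mouse. H3K4me3 was present in 8 mice at start 5 (Pde4b-203), 482552 bp downstream of start 1, and in 5 mice at start 7. H3K27ac was present in 8 mice at start 5 and in mice 4, 5, 8 and 11 at starts 6 and 7. H3K4me3 fold at start 5 was 15.3 and 30.8 in warm NCD, 87.3 and 77.1 in cold NCD, 13.5 and 17.5 in warm HFD and 18.0 and 23.1 in cold HFD mice. In this raw fold the cold NCD mice were the highest of the 8, and the cold HFD mice lay within the range of the warm mice. After the normalisation used for testing below, mouse 5 (log2 fold 4.38) lay below mouse 7 (5.40), mouse 10 (4.87) and mouse 8 (4.79). An unannotated intronic region (chr4:102510976-102511892) had H3K4me3 in 6 mice at 3.21 to 10.1 fold and overlapped H3K27ac in 6.

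Pde4d (chr13:108654177-109953461) has 9 annotated starts, and 3 of them had H3K4me3 in 8 mice: starts 4 (Pde4d-205), 6 (Pde4d-201) and 7 (Pde4d-207). The others had none. At start 4 the H3K4me3 fold was 15.1 and 17.3 in warm NCD, 32.6 and 24.8 in cold NCD, 7.25 and 11.6 in warm HFD and 8.54 and 12.4 in cold HFD mice. All NCD mice lay above the HFD mice in this raw fold, which was lower on HFD over all regions too, as given below. After normalisation the mean log2 fold was 4.01 in HFD and 3.73 in NCD mice. H3K27ac was present at start 4 in 0 mice, at start 6 in 4 and at start 7 in 8. The start 7 region, which also lay over or within 1000 bp of a start of the microRNA gene Mir1904, had an H3K4me3 fold of 24.5 and 40.0 in warm NCD, 30.0 and 91.9 in cold NCD, 4.70 and 12.8 in warm HFD and 9.11 and 41.9 in cold HFD mice. The H3K4me3 region at start 4 (chr13:109440213-109441949) ended before the annotated start itself. H3K27ac overlapped this region in 1 mouse (mouse 8), outside the 1000 bp window of the start. The single H3K27me3 peak over the 10 genes lay at start 3 in mouse 5, which had the longest list of that mark.

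H3K4me3 was also present in 8 mice at starts of Pde4d-218 and Pde4d-213, which only the comprehensive annotation holds. At Pde4d-218 (chr13:109260120-109261237) the fold was 7.48 and 11.2 in warm NCD, 37.7 and 44.5 in cold NCD, 6.54 and 4.28 in warm HFD and 8.54 and 14.8 in cold HFD mice. In raw fold the cold NCD mice were again the highest, and the lowest cold mouse lay below the highest warm mouse. After normalisation mouse 5 (log2 fold 3.77) lay below mouse 7 (4.62) and mouse 10 (4.10). H3K27ac overlapped this region in 1 mouse. At Pde4d-213 the fold was 22.3 and 23.2 in warm NCD, 22.1 and 21.7 in cold NCD, 11.6 and 6.75 in warm HFD and 7.13 and 20.2 in cold HFD mice, and H3K27ac overlapped that region in 7. The NCD mice lay above the HFD mice here, as raw H3K4me3 fold did over all regions, where the diet difference without normalisation had a median of −1.48 on the log2 scale.

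A further H3K4me3 region of 8 mice in a Pde4d intron (chr13:109821765-109822924) lay away from every annotated start. It was low, at 4.88 to 10.1 fold, and sat within an H3K27ac region of 8 mice (chr13:109820863-109824479) with H3K4me1 in 3. The H3K27ac fold was 4.66 and 8.14 in warm NCD, 7.12 and 8.01 in cold NCD, 5.29 and 9.59 in warm HFD and 8.03 and 12.5 in cold HFD mice, and in this raw fold the groups overlapped. After normalisation the HFD mice (log2 fold 3.19 to 3.37) lay above the NCD mice (2.31 to 2.80). This difference did not pass the test given below. The 200 bases around the median H3K4me3 summit, shown as the only unannotated H3K4me3 site of the genes in 8 mice, (chr13:109822275-109822474, plus strand) held 3 CpGs, in capitals, and none of the motifs searched.

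Pde4d intron: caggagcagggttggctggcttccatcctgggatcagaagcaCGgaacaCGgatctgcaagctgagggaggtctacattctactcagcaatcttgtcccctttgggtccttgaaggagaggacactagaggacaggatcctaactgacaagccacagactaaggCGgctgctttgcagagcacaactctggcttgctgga

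**Figure D2:**
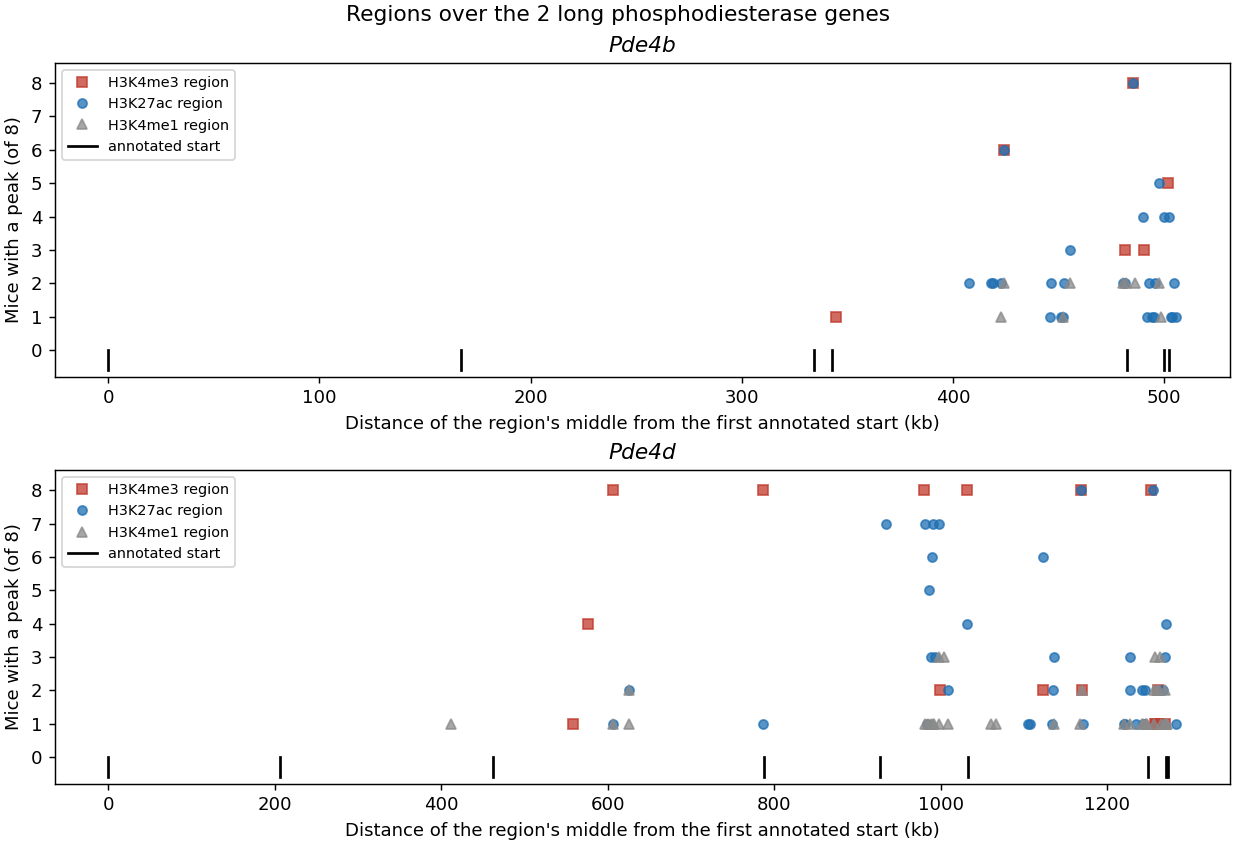
Regions of H3K4me3, H3K27ac and H3K4me1 over Pde4b and Pde4d, by distance from start 1 in kb (x axis) and by the number of mice with a peak, of 8 (y axis), with black ticks at annotated starts. Starts 1 to 4 of Pde4b carry no region, and in Pde4d 6 H3K4me3 regions are present in 8 mice.

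Of the 45 H3K4me3 regions, 14 were present in 8 mice, where 34.2% of all regions were, and 24 in at least 4 (62.8%). Those away from starts numbered 21, with 1 in 8 mice (5.88% of all away regions) and 6 in at least 4 (32.8%). Of the 101 H3K27ac regions, 7 were present in 8 mice (4.29%) and 33 in at least 4 (42%).

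Of these H3K27ac regions, 76 lay away from starts, 29 of them in Pde4d, 22 in Pde4b and 15 in Prkar2b. Of the 76, 2 were present in 8 mice (2.91% of all away regions) and 16 in at least 4 (30.3%). H3K4me1 overlapped 21 of the 76 in at least 1 mouse, where 45.8% of all away regions had it, and H3K4me3 overlapped 11, where 20% had it. Pde4d held further away regions in 7 mice, of which those with the highest median −log10 q lay at chr13:109644210-109646175 (6.44 to 13.02 fold) and chr13:109650113-109653957 (5.60 to 17.5 fold). Both were missing in mouse 7. Of the 86 H3K4me1 regions, 0 were present in at least 4 mice, where 10.8% of all were, and 60 were seen in 1 mouse.

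Presence was then compared between 4 cold and 4 warm and between 4 HFD and 4 NCD mice. A region was called where it was found in 4 mice on one side and in 0 on the other. By this rule 0 regions of the 10 genes were called for any mark, by temperature or by diet. Of all H3K4me3 regions, 0.16% were called by temperature and 0.612% by diet. The shares were 0.326% and 0.0883% of H3K27ac regions, 0% and 0.125% of H3K4me1 regions, and 0% and 0.0844% of H3K27me3 regions. With shares this low, 0 regions of the genes is near the background. Fisher's exact test, two-sided, cannot go below p = 0.0286 for 4 against 4 mice, a value that only a called region reaches. After Benjamini-Hochberg adjustment no region of any mark passed, in these genes or elsewhere, so this test cannot tell these genes from the rest.

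Leaving out mice 7 and 10 gave 11 H3K27ac regions, of 101, with a peak in both HFD mice left (8 and 11) and in none of the 4 NCD mice: 8 in Pde4d, 2 in Pde4b and 1 in Pde3b. That is 10.9% of the regions of these genes, against 3.44% of all H3K27ac regions called in either direction. Of all 47535 regions, 1587 were in HFD mice only and 47 in NCD mice only, and of those of the genes 11 and 0. Mice 8 and 11 had the longest H3K27ac lists, with 33798 and 40604 peaks, against 16889 to 30544 in the NCD mice, so diet and list length cannot be told apart here. H3K4me3 gave 2 of 45 regions (4.44%, against 1.42% of all) and H3K4me1 2 of 86 (2.33%, against 0.792%), again in mice 8 and 11. The shares of all regions again count either direction. They held 230 H3K4me3 regions in HFD mice only and 178 in NCD mice only, and 307 and 61 H3K4me1 regions. The H3K4me3 list of mouse 8 was the shortest of the 6 (19079 peaks) and that of mouse 11 the longest (24104). The H3K4me1 lists of mice 8 and 11 held 17597 and 7774 peaks. Those of mice 1, 2, 4 and 5 held 592, 21356, 15676 and 27568. The part of diet and of list length in these calls was not tested. By temperature 0 regions of the genes were called in this way, where 1.96% of H3K4me3, 2.06% of H3K27ac and 0.426% of H3K4me1 regions were. Mice 7 and 10 were left out after their short lists had been seen, and no test was made.

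Peak fold was compared in regions with a peak in all 8 mice, which were 14 of the H3K4me3 and 7 of the H3K27ac regions of the genes. Log2 fold was quantile normalised over 9842 and 2039 regions and tested with limma. By temperature and by diet 0 regions passed an adjusted p of 0.05, among the genes or among all regions (0% in every comparison), and at an unadjusted p under 0.05 H3K4me3 gave 491 (4.99%) and 587 (5.96%) regions and H3K27ac 113 (5.54%) and 195 (9.56%). For the interaction of temperature and diet the number was 0 as well, with 360 (3.66%) and 134 (6.57%) regions at an unadjusted p under 0.05.

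H3K4me3 at Prkacb start 1 had a normalised log2 fold of 4.20 in cold and 4.89 in warm mice, a difference of −0.69 ± 0.33 (SE; limma adjusted p = 0.917). Without normalisation this difference was 0.10, of the opposite sign, while the median of all regions moved by 0.72. At Pde4d-218 the cold mice were at 4.03 and the warm mice at 3.09, a difference of 0.94 ± 0.51 (limma adjusted p = 0.917). This difference was 0.57 without mouse 4, 1.60 without mouse 7 and 1.62 without normalisation. At Pde4b-203 the cold minus warm difference in HFD mice less that in NCD mice was −1.77 ± 0.73 (limma adjusted p = 0.973), and −1.14 without mouse 4. H3K27ac in the Pde4d intron was at 3.29 in HFD and 2.60 in NCD, a difference of 0.69 ± 0.23 (limma adjusted p = 0.313), which was 0.31 without normalisation. No other difference had an unadjusted p under 0.1, and none of the 4 held against the adjustment.

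**Figure D3:**
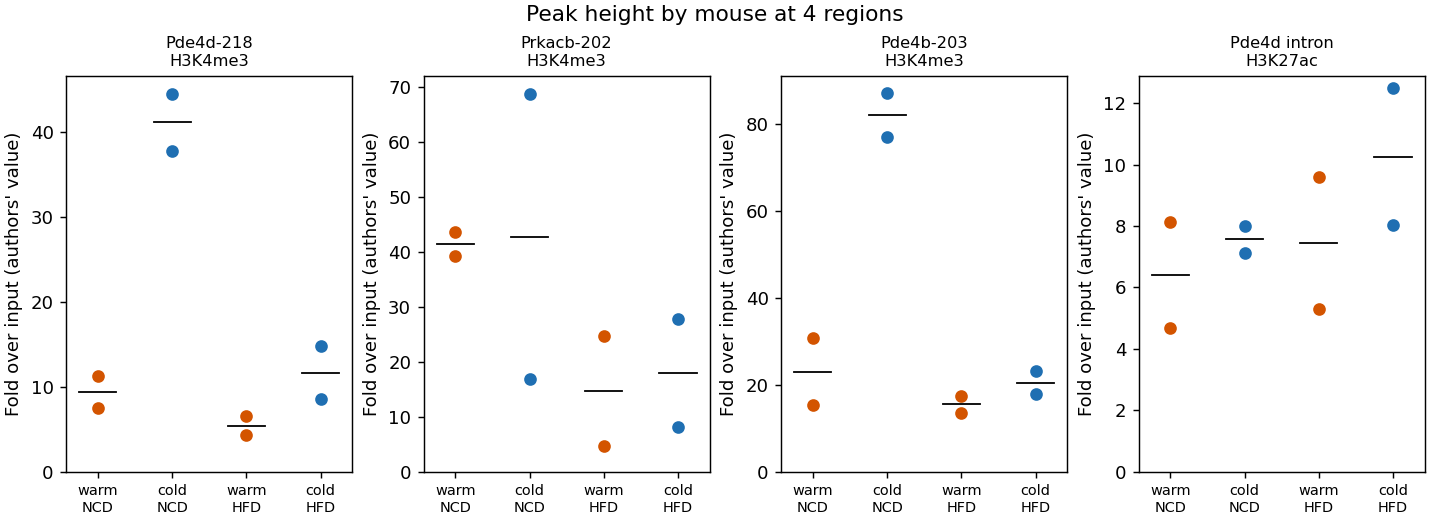
Fold over input of the highest peak (y axis, from 0) in each mouse by condition (x axis, blue cold, orange warm), with bars at the mean of 2 mice, at the 4 regions with an unadjusted limma p under 0.1 in any comparison. The values are before normalisation, and at Pde4b-203 and Pde4d-218 both cold NCD mice stand above the other 6. After normalisation mouse 5 no longer did so at either region.

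Over the 14 H3K4me3 regions the median difference was −0.08 by temperature and 0.17 by diet, against 0.01 and −0.02 over all regions. Over the 7 H3K27ac regions it was −0.01 and 0.12, against 0.00 for both in all regions. The differences by temperature spanned −0.69 to 0.94 for H3K4me3 and −0.21 to 0.13 for H3K27ac. By diet they spanned −0.41 to 0.54 and 0.03 to 0.69, with SEs of 0.31 to 0.52 for H3K4me3 and 0.23 to 0.32 for H3K27ac.

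**Figure D4:**
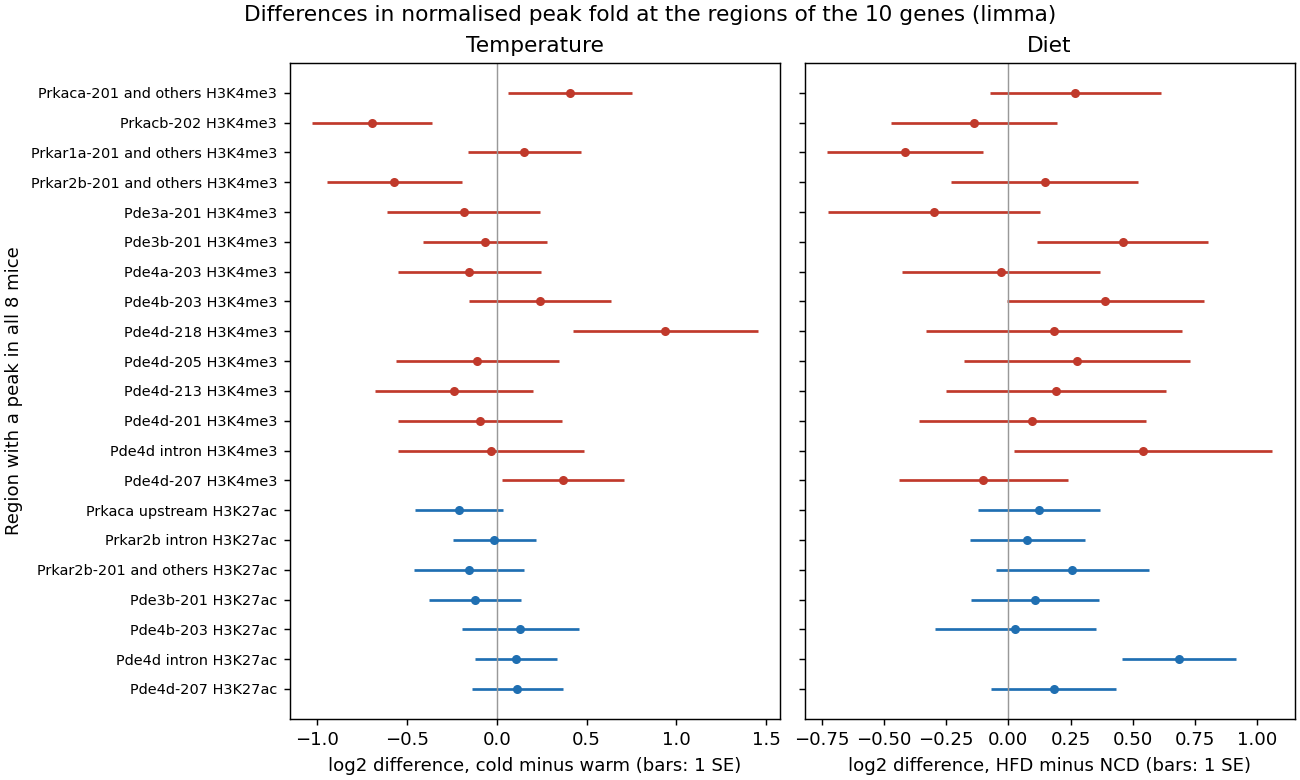
Log2 differences in normalised fold (points) with 1 SE (bars), cold minus warm on the left and HFD minus NCD on the right, at the 21 regions of the genes with a peak in 8 mice, H3K4me3 in red and H3K27ac in blue. No difference passed an adjusted p of 0.05 in limma, and the largest by temperature was 0.94 at Pde4d-218.

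The rest of the pathway was followed through 34 further genes, namely other PKA subunits, PKA inhibitors, A-kinase anchoring proteins, phosphodiesterases and cAMP-responsive factors. H3K4me3 was present in 8 mice at a start of 20 of them (43.3% of all genes) and in at least 1 mouse at 32 (64.9%). H3K27ac was present in 8 mice at 5, where 3.74% of all genes had it (named after their values were seen: Akap1, Akap7, Akap10, Pde8a and Atf1). Pde1a and Akap6 had no H3K4me3 peak within 1000 bp of an annotated start, and the rest of these genes was not searched. In each comparison a gene was taken at its start region with the lowest p, so more regions give more chances. Of the 20 genes tested for H3K4me3 fold and the 5 for H3K27ac, 0 passed in limma by temperature or diet in either direction. At an unadjusted p under 0.05 there were 2 and 2 for H3K4me3 and 0 and 0 for H3K27ac. Counted by region, the shares over all regions were 4.99% and 5.96% for H3K4me3 and 5.54% and 9.56% for H3K27ac. Crem, which encodes a cAMP-responsive activator and repressor, had the lowest p, with an H3K4me3 difference of 1.67 ± 0.41 between HFD and NCD (limma adjusted p = 0.297). Akap13, an anchoring protein, was at −1.14 ± 0.44 in cold (limma adjusted p = 0.917).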

How the data were processed

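The authors trimmed reads with cutadapt, aligned them with Bowtie2 to GRCm38 and called peaks per library with MACS2 against input; neither versions nor a peak threshold were found in the sources. The 32 deposited lists give each peak a fold enrichment, a ratio computed by the authors, and −log10 p and q values, which the authors took from the caller. The smallest −log10 q was 1.30. The 8 inputs were used only through these lists. The lists carry 1 mouse number each, although the methods can also be read as 2 mice in each experiment. If so, p-values measure spread between pools.

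Starts came from GENCODE M21 basic, and sequences from the RefSeq GRCm38 assembly, inside whose chromosomes all peaks compared lay. Fisher's exact test (scipy 1.17.1) and limma 3.58.1 (R 4.3.3; log2 fold, empirical Bayes with trend; Benjamini-Hochberg over all regions) were used. The interaction is the cold effect in HFD minus that in NCD. The limma step was tested on simulated data. CpG counts and their capitals were chosen after the counts were seen. Named were all 10 genes, genes starting in their windows, up to 5 pathway genes with the lowest p per comparison (others after their values were seen), up to 3 away regions per gene and mark, 5 motifs, and, chosen after seeing values, regions with an unadjusted limma p under 0.1. The members and lists were chosen with earlier results of these data known.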

Additional observations from a re-analysis of the deposited data

Results flagged for a closer look

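In groups of 4 or 8 mice, 135 sets of values were screened for a sample standing far from the rest, judged by its gap to the nearest value as a share of the whole range. Chance alone flags about 1 in 20 sets, or 6.75 here, and 6 were found. Among cold mice, mouse 11 had 40 H3K4me3 regions over the 10 genes against 19 to 22 in the others (gap 0.857 of the range), and its H3K4me3 list was the longest. At Prkar1a, mouse 1 stood at a normalised log2 H3K4me3 fold of 5.40 among NCD mice, the others at 5.11 to 5.13 (0.916). At Pde4d-205, mouse 4 stood at 4.79 among NCD mice against 3.33 to 3.47 (0.899). In the region at Pde4d-207, mouse 11 stood at 5.23 among HFD mice for H3K4me3 against 4.13 to 4.29 (0.853). In the H3K27ac region there it stood at 4.58 against 3.69 to 3.94 in all other mice (0.718) and against 3.69 to 3.80 in the other cold mice (0.877).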

How the results depend on the processing

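Of 40 counts and summary values, recomputed under the alternatives, 400 recomputed values stayed within 1.5 times the reported one and 72 did not. No paired analysis was possible because the groups compared share no mouse numbers. For presence over all regions, a −log10 q of at least 5 gave 20 H3K4me3 regions by temperature, 42 H3K27ac by temperature, 19 H3K27ac by diet and 11 H3K4me1 by diet. Calling at least 3 against at most 1 mouse, with a difference of at least 3 mice, by temperature and by diet, gave 676 and 1482 of 28739 H3K4me3 regions, 1685 and 826 of 47548 H3K27ac regions, 198 and 2803 of 46451 H3K4me1 regions, and 74 and 30 of 7108 H3K27me3 regions. For the 10 genes it gave 2 and 2 of 101 H3K27ac regions and, by diet, 5 of 86 H3K4me1 regions. Leaving out mice also loosens the rule, as a call then needs a peak in all mice left on one side and in 0 on the other. The groups were 3 and 3 mice by temperature and 2 and 4 by diet without mice 7 and 10, and 3 and 4 without 1 mouse. Without mice 7 and 10, an alternative added after seeing the data, the counts were 564 and 408, 980 and 1634, 198 and 368, and 72 and 21, and for the genes by diet 2 (H3K4me3), 11 (H3K27ac) and 2 (H3K4me1). Leaving out each mouse gave 48 to 530 and 183 to 1091 H3K4me3 regions, 161 to 974 and 43 to 395 H3K27ac regions, 0 to 198 and 58 to 2625 H3K4me1 regions, and 0 to 72 and 6 to 19 H3K27me3 regions. For the genes by temperature it gave 1 of 102 H3K27ac regions without mouse 2 (326 of 47251 over all) and 1 of 96 without mouse 8 (538 of 45564). By diet it gave 2 of 101 H3K27ac regions without mouse 7 (122 of 47546) and 1 of 86 without mouse 11 (267 of 42446). For H3K4me1 by diet it gave 5 of 86 without mouse 1 (2625 of 46422). The other counts for the genes were 0. The highest counts over all regions came without mouse 10 by temperature, and by diet without mouse 11 for H3K4me3 and without mouse 1 for the other marks.

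For limma over all 9842 H3K4me3 regions, no normalisation called 4 by temperature and 2696 by diet, with the median of all regions moved by −1.48 by diet. Of the 14 regions in the genes, 2 were among those called by diet. By diet, a −log10 q of at least 5 called 4 and leaving out mice 7 and 10 called 1. Leaving out each mouse gave 0 to 3 H3K4me3 and 0 to 2 H3K27ac calls for the interaction, with the highest without mouse 8. The Prkacb difference by temperature was 0.10 without normalisation, the opposite sign. H3K27ac was present in all mice at 8 starts without mice 7 and 10, at 2 with a −log10 q of at least 5, and at 4 to 7 on leaving out each mouse (7 without mouse 7). At that q, starts with H3K4me1 numbered 0, starts with H3K27me3 0, and regions of the genes 62 for H3K27ac, 11 for H3K4me1 and 0 for H3K27me3. The H3K27me3 count was 0 to 1 on leaving out each mouse, 0 without mouse 5. The comprehensive annotation and leaving out each mouse were added for start sites after seeing the data. The causes were not tested. List length limits presence, above all for H3K4me1 and H3K27me3, and read depth is unknown.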
